A study of Homo sapiens with 8 samples.

Results

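Tumour suppressors of the pancreas and inhibitors of cyclin-dependent kinases, 6 genes in all, were followed through the H3K9ac and H3K27ac peak lists of pancreatic cancer cells: SMAD4, RB1, CDKN1A, CDKN1B, CDKN2A and ARID1A. An H3K9ac peak was taken for a gene when the authors' annotation named that gene, and an H3K27ac peak when its centre lay within 2 kb of such a peak of either H3K9ac list. By this rule 5 of the 6 genes had peaks, among 10770 protein-coding genes named in the H3K9ac lists. They held 8 of 27467 H3K9ac peaks (6 stromal and 2 astromal) and 8 of 29582 H3K27ac peaks (4 stromal and 4 astromal). CDKN2A had no peak in the lists used here.

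The cells were MIA PaCa-2, an established line of human pancreatic carcinoma, grown as spheroids in a hyaluronan gel, and the design sets histone acetylation under stromal culture against astromal culture. Stromal gels contained Gelin-S, a collagen-derived component, and received medium with 2% serum that had been conditioned for 48 h by immortalised myofibroblasts from resected pancreatic tumours. Astromal gels lacked Gelin-S and received plain DMEM with 2% serum. Each mark and condition was 1 library, so gel composition, conditioned medium and the single library cannot be told apart in any difference given here. Nor can acetylation of more cells of a spheroid be told from more acetylation per cell.

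SMAD4 is the common partner of the receptor-activated SMADs and carries TGF-beta signals to the nucleus. CDKN2A, CDKN1A and CDKN1B encode inhibitors of cyclin-dependent kinases, and these kinases otherwise phosphorylate the RB1 protein and release E2F transcription factors for entry into S phase. ARID1A is a DNA-binding subunit of the SWI/SNF chromatin remodelling complex. Acetylation of histone H3 at lysines 9 and 27 marks active promoters, and H3K27ac also marks active enhancers.

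The H3K9ac libraries had estimated depths of 7569604 stromal and 3925277 astromal tags, with 20326 and 7141 peaks. The H3K27ac libraries held 17190695 stromal and 13453902 astromal tags, with 15093 and 14489 peaks. The median H3K9ac peak held 20 tags in the stromal list and 9 in the astromal list, so astromal H3K9ac values rest on few tags. A level is the number of tags in a gene's peaks, scaled by the authors to 10000000 tags of the library and summed over peaks. Among genes in both lists the median log2 ratio of stromal over astromal levels was 1.00 for H3K9ac and −0.17 for H3K27ac. Centred ratios have this median subtracted. A gene counted as higher or lower, a call, when that ratio reached 2-fold in either direction and its 95% Clopper-Pearson interval, which covers counting error only, left out 0. Only a gene with peaks in both lists of a mark could be called. Of markers fixed for the cell type, the keratin genes KRT8, KRT18 and KRT19 had H3K9ac peaks. KRT18 had them in both lists, and KRT8 (40.9) and KRT19 (30.4) in the stromal list only. EPCAM and CDH1 had none, and VIM, which this line is also described to express, had peaks in the stromal lists only. Stromal-only H3K9ac was the place of 51.2% of all genes. The leukocyte gene PTPRC had no peak. Of 11 fibroblast markers 4 had H3K9ac, all of them in the stromal list only, with levels of 111.0 for COL1A2, 29.0 for ACTA2, 23.8 for PDGFRA and 17.2 for COL1A1. COL1A2 had H3K27ac in both conditions, at 67.5 stromal and 89.2 astromal, and the other 3 had none. The part of these marker differences in the results below was not tested.

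The promoters of 4 of the genes are shown because their H3K9ac peaks differed in place: just upstream of the start site (SMAD4), just downstream of it in 1 condition (CDKN1A, CDKN1B), or far upstream with none at the start (ARID1A). The sequences come from RefSeq on build GRCh38.p14 and run on the plus strand from 250 bases before to 50 bases after the start, whereas peak positions are in hg19 and the builds were not aligned. The windows are chr18:51029963-51030262, chr6:36678464-36678763, chr12:12717118-12717417 and chr1:26695765-26696064, in the order printed. Capitals mark the GC box GGGCGG and the CCAAT box CCAAT on either strand, with overlapping matches run together.
SMAD4: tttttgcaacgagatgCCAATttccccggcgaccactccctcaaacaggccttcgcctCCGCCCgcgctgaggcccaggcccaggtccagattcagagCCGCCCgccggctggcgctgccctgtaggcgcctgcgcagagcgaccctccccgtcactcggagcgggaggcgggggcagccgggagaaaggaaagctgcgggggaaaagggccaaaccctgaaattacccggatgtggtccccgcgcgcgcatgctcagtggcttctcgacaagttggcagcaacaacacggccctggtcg
CDKN1A: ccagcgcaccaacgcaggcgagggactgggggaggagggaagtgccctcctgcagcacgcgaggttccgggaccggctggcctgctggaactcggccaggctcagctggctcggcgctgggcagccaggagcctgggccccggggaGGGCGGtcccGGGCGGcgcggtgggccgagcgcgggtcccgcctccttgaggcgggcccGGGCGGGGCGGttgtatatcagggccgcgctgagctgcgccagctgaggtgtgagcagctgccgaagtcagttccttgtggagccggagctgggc
CDKN1B: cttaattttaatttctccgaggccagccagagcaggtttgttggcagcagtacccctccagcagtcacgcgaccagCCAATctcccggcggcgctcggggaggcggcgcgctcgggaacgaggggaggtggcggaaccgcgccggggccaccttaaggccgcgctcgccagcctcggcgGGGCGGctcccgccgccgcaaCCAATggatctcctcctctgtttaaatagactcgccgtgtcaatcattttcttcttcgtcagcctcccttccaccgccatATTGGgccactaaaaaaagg
ARID1A: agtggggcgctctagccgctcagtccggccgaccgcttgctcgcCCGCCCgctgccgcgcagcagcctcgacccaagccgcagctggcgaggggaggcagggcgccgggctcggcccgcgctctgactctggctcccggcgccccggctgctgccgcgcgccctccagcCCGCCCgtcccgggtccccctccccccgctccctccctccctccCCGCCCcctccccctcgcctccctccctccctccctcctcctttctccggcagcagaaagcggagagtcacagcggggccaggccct

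All 4 windows were above the median in CpG, with 28 in SMAD4, 29 in CDKN1A, 29 in CDKN1B and 33 in ARID1A. The median over 35116 RefSeq promoters was 14. Between 73.8% (SMAD4) and 82.8% (ARID1A) of promoters held fewer CpG than these windows. GC content of the 4 windows was 66.7%, 74.3%, 62.3% and 78.0% in the same order, against a median of 58.7%. A GC box, the letters bound by the SP family, occurred 2 times in SMAD4, 4 times in CDKN1A (1 pair overlapping), once in CDKN1B and 3 times in ARID1A. It was present in 45.0% of all promoters. A CCAAT box occurred once in SMAD4 and 3 times in CDKN1B, and was present in 34.6% of all promoters. None of the 4 held TATAAA, which 11.5% of promoters did. A match is a description of the letters and not a measured site.

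Across the 6 genes, as over all genes, membership of the H3K9ac lists differed more between conditions than that of the H3K27ac lists. The H3K9ac lists were also less equal in size, with 20326 stromal and 7141 astromal peaks, against 15093 and 14489 for H3K27ac. The part of depth and list size in this difference was not tested. SMAD4, CDKN1A and RB1 were named in the stromal H3K9ac list only, CDKN1B in the astromal list only and ARID1A in both. Over all genes 51.2% were in the stromal list only, 0.706% in the astromal list only and 48.1% in both. The 3 stromal-only genes are thus near the background share, and 76 genes in all had the astromal-only place of CDKN1B. H3K27ac was found in both lists at SMAD4, RB1 and ARID1A and in neither at CDKN1A and CDKN1B, where 65.8% of genes were in both, 5.2% in the stromal list only, 7.43% in the astromal list only and 21.5% in neither. Only ARID1A could be called for H3K9ac, and only SMAD4, RB1 and ARID1A for H3K27ac. None of these was called higher or lower. Among genes in both lists 5.85% were called higher and 3.61% lower for H3K9ac, and 5.5% higher and 6.21% lower for H3K27ac.

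**Figure D1:**
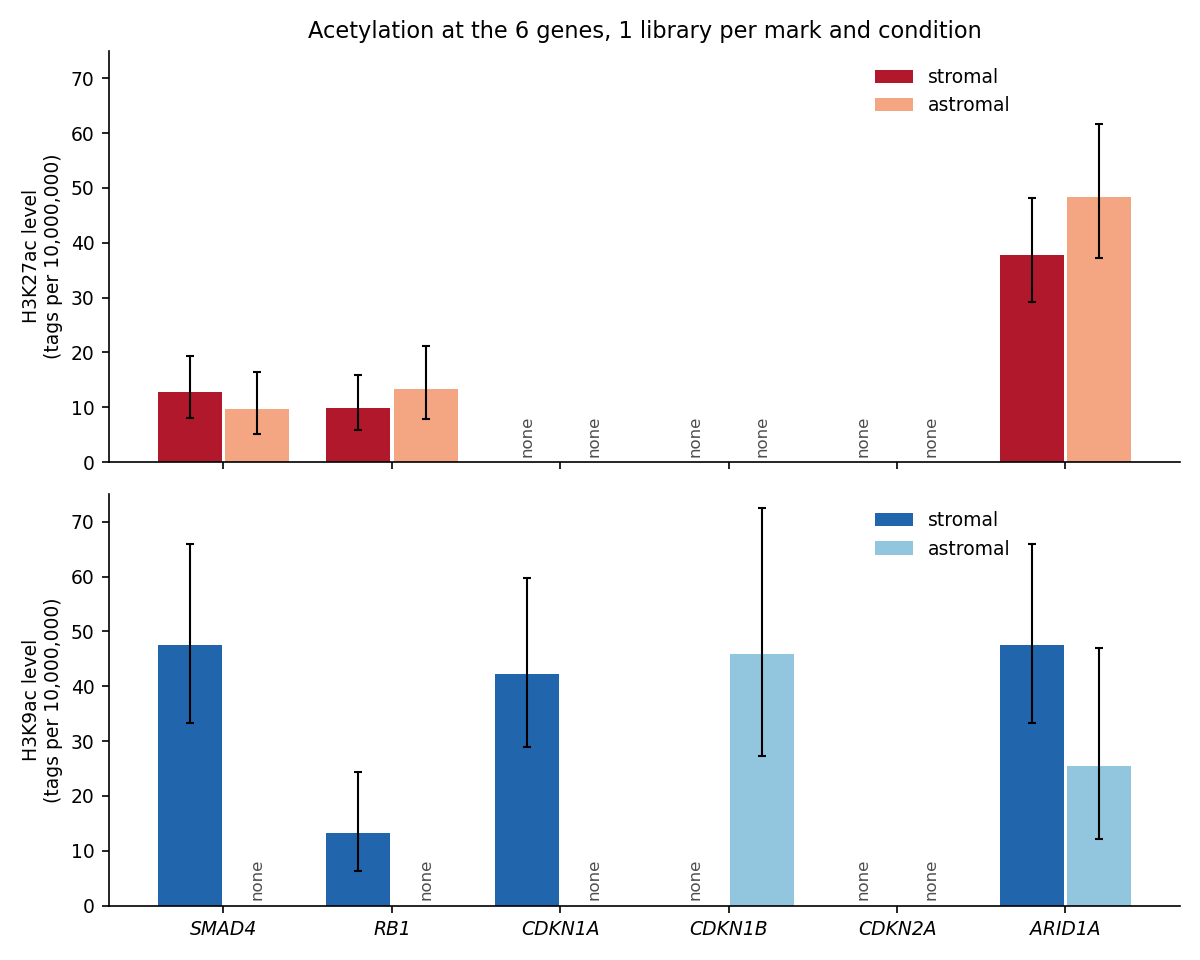
Levels of H3K27ac (top) and H3K9ac (bottom) in tags per 10000000 for the 6 genes, with stromal bars left of astromal bars and exact 95% Poisson intervals of the tags as error bars; "none" stands where the list had no peak for the gene, and H3K9ac of RB1 is drawn by the peak that names it. CDKN1A and CDKN1B have H3K9ac peaks in 1 condition each and no listed H3K27ac peak. ARID1A has peaks of both marks in both conditions, and CDKN2A has none.

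SMAD4 carried H3K9ac at its promoter in the stromal list only. The single peak, chr18:48556158-48556368 (hg19, annotated promoter-TSS), was centred 320 bp upstream of the start of NM_005359 and reached 47.6 (36 tags), above 91.2% of stromal peaks. No astromal H3K9ac peak lay within 61540 bp of its centre. At an equal level the astromal library would have held 18.7 tags there, while the weakest peak of its list had 5. By highest peaks the median log2 ratio of stromal over astromal H3K9ac was 0.68, against 1.00 for summed levels. After this highest-peak median difference the astromal library would have held 11.7 tags. Of the 1309 genes whose highest stromal peak was within 10% of this level, 83.1% also had astromal H3K9ac. SMAD4 was therefore among the minority at that level.

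H3K27ac at SMAD4 was listed in both conditions, in places that did not overlap. The stromal peak reached 12.8 (22 tags, chr18:48556182-48556356, 15.4-fold over input) and the astromal peak 9.66 (13 tags, chr18:48555965-48556161, 7.92-fold over input). The centres were 206 bp apart, and the stromal H3K27ac peak lay wholly inside the stromal H3K9ac peak. The log2 ratio was 0.41, or 0.57 after centring (−0.48 to 1.68), an interval that holds 0. The gene with H3K9ac in 1 list thus had H3K27ac in both, at levels that did not differ beyond counting error.

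RB1, which encodes the pocket protein that restrains E2F factors, was also named by stromal H3K9ac only, and position showed another picture. The peak that names it, chr13:48878603-48878813, lay 825 bp downstream of the start of NM_000321 with 13.2 (10 tags), above only 3.51% of stromal peaks. At that level only 3.78% of 767 genes also had astromal H3K9ac, and an equal level would have given 5.18 astromal tags, next to the lowest listed value of 5. The annotation assigns the peaks just upstream of the start to LINC00441, a noncoding RNA transcribed from the same promoter in the opposite direction. These were present in both conditions, with 19.8 (15 tags, centred 228 bp upstream) in the stromal list and 20.4 (8 tags, 337 bp upstream) in the astromal list. Their log2 ratio, not centred, was −0.04 (−1.37 to 1.40). With all peaks near the start, RB1 had 33.0 (25 tags) stromal and 20.4 (8 tags) astromal H3K9ac. This log2 ratio, also not centred, was 0.70 (−0.50 to 2.06). Both ratios lay below the median of 1.00 among genes in both H3K9ac lists, and both intervals held that value. The RB1 promoter thus carried H3K9ac in both conditions, and "stromal only" held for the peak downstream of the start.

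H3K27ac at RB1 lay over the shared upstream region. The stromal peak had 9.89 (17 tags, chr13:48877508-48877682, 11.38-fold over input) and the astromal peak 13.4 (18 tags, chr13:48877416-48877612, 21.92-fold over input), with 105 bp in common. The centred log2 ratio was −0.27 (−1.32 to 0.77), which holds 0.

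CDKN1A, the gene of the inhibitor p21, had stromal H3K9ac peaks downstream of its start and no H3K27ac peak in either list. The peaks stood at chr6:36646738-36646948 with 18.5 (14 tags) and chr6:36647694-36647904 with 23.8 (18 tags), centred 356 and 1312 bp after the start of NM_001220778, in intron 1. Together they gave 42.3 (32 tags), and no other peak of any list lay within 40 kb of the start. The higher peak was above 40.2% of stromal peaks, and 28.9% of the 1236 genes with a highest peak of like level also had astromal H3K9ac. An equal level would have given 9.34 astromal tags, or 5.84 after the highest-peak median difference, near the lowest listed value of 5. Absence from the astromal list at such a level was common and is not a measured absence of the mark. Of genes with stromal H3K9ac 71.0% had an H3K27ac peak in that condition, and CDKN1A was not among them. Listed H3K27ac peaks had to reach 4-fold over input and over the surrounding 10 kb. A missing peak is thus no measured absence of that mark.

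CDKN1B, which encodes the inhibitor p27, had H3K9ac in the astromal list only. The peak, chr12:12870538-12870738, was centred 434 bp after the start of NM_004064 in the 5′ UTR of exon 1 and reached 45.9 (18 tags), number 118 in the astromal list and above 97.6% of it. The nearest stromal H3K9ac peak was 21190 bp away at the promoter of GPR19, an orphan receptor gene, where both lists had a peak, of 71.3 stromal and 51.0 astromal. At an equal level the stromal library would have held 34.7 tags at CDKN1B, or 55.6 with the highest-peak median difference, while its weakest listed peak had 8. Of the 129 genes whose highest astromal peak was within 10% of this level, 127 (98.4%) also had stromal H3K9ac. Genes at this astromal level were thus nearly always in the stromal list too, and the cause of the missing stromal peak was not tested.

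No H3K27ac peak lay within 2 kb of the CDKN1B peak in either condition. The stromal list had an H3K27ac peak of 27.9 (48 tags) centred 9305 bp downstream of the start, 32.14-fold over input and 4.15-fold over the surrounding 10 kb, near the 4-fold that the caller required. The nearest astromal H3K27ac peak was 21204 bp from the CDKN1B peak, at the GPR19 promoter. Of genes with astromal H3K9ac 90.5% had H3K27ac in that condition.

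ARID1A was the 1 gene with both marks in both conditions, and all of its peaks lay upstream of the promoter. The peaks were annotated as intergenic and centred between 2304 and 3332 bp before the start of NM_006015, and no list had a peak within 2 kb of the start. Stromal H3K9ac had peaks of 25.1 (19 tags, chr1:27019130-27019340) and 22.5 (17 tags, chr1:27019834-27020044), together 47.6 (36 tags). Astromal H3K9ac had 1 peak of 25.5 (10 tags, chr1:27019090-27019290), which shared 161 bp with the first stromal peak. The log2 ratio was 0.90 before and −0.10 after centring (−1.14 to 1.08), so its sign turned with centring and the interval held 0.

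H3K27ac at ARID1A formed a pair of peaks in each condition. Stromal peaks had 22.1 (38 tags, chr1:27019192-27019366) and 15.7 (27 tags, chr1:27020065-27020239), and astromal peaks 20.1 (27 tags, chr1:27019259-27019455) and 28.2 (38 tags, chr1:27020120-27020316). The farther peak was the higher one in the stromal list and the nearer peak in the astromal list. Fold over input was 50.89 and 18.08 in the stromal list and 32.88 and 23.14 in the astromal list. Fold over the surrounding 10 kb was 6.33 and 4.16 in the stromal list and 4.15 and 5.93 in the astromal list, so 1 peak of each pair was close to the required 4-fold. The sums were 37.8 stromal and 48.3 astromal, of 65 tags each, and the centred log2 ratio was −0.19 (−0.71 to 0.33). The upstream site was thus listed for H3K27ac in both conditions, with no difference beyond counting error.

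**Figure D2:**
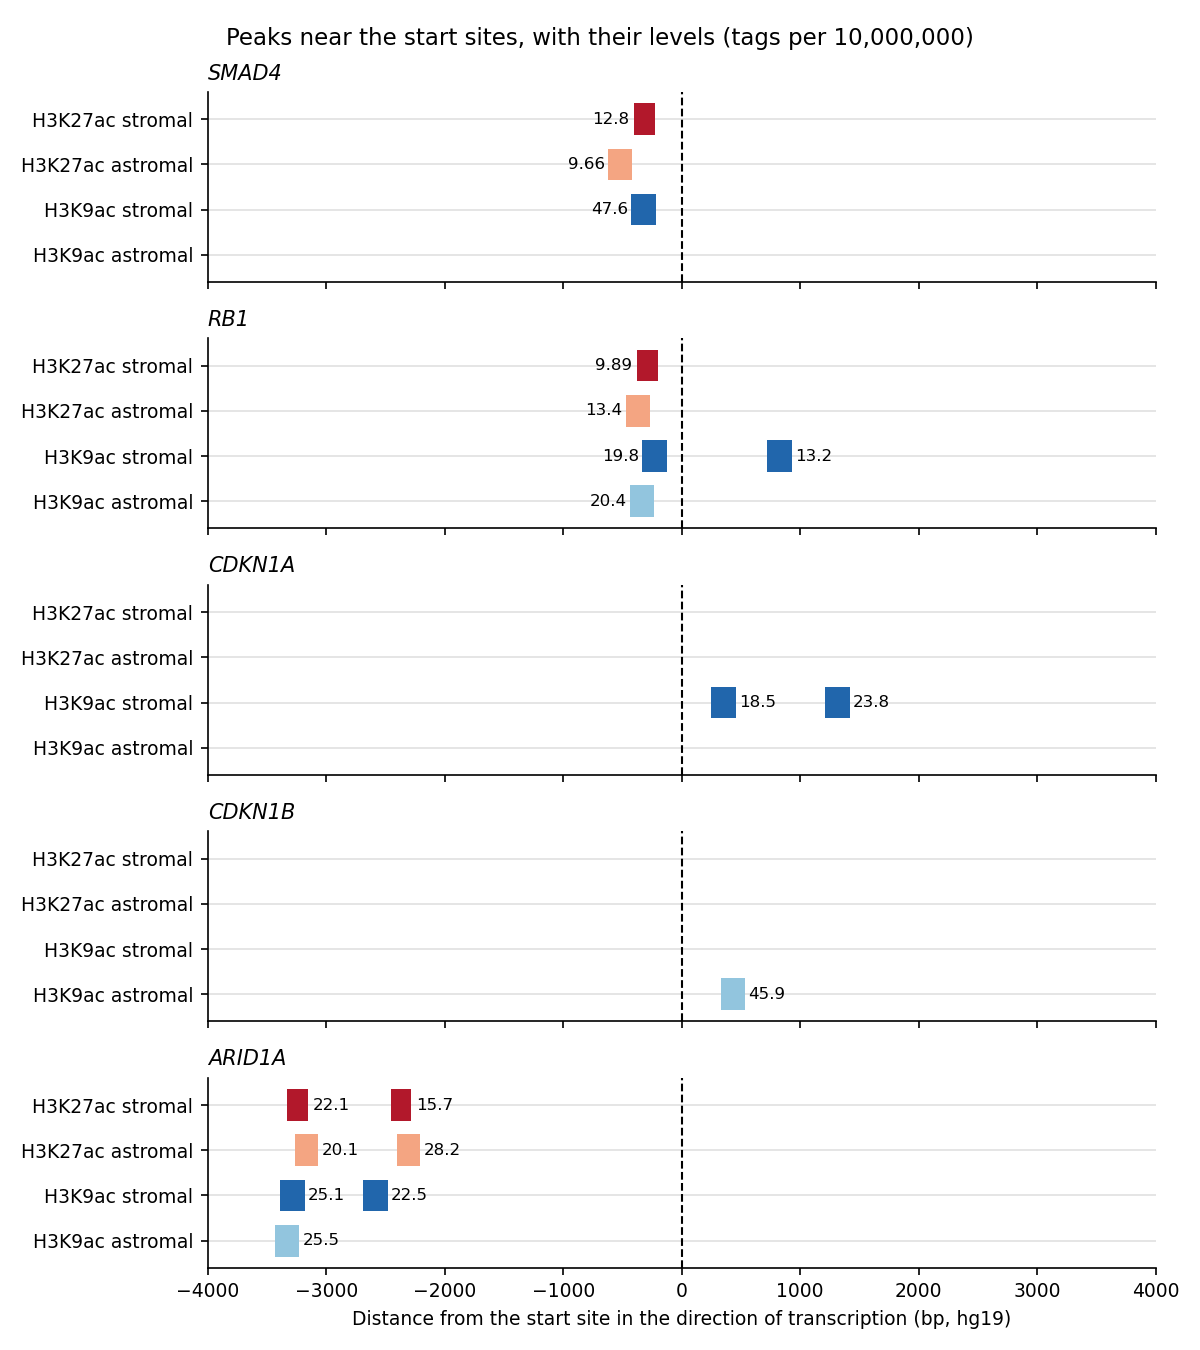
Peaks within 4 kb of the start sites of the 5 genes with peaks, drawn to scale by distance from the start (bp, hg19, dashed line) with their levels in tags per 10000000 beside them; rows from top to bottom are stromal and astromal H3K27ac, then stromal and astromal H3K9ac. The upstream H3K9ac peaks drawn for RB1, stromal and astromal, are named for LINC00441, and all ARID1A peaks stand more than 2 kb upstream.

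Within a condition the marks were set against each other by their log2 ratio of H3K27ac over H3K9ac, centred on the median gene with both marks (7590 stromal and 4757 astromal genes). ARID1A had more H3K27ac for its H3K9ac than most genes, at 1.05 (0.44 to 1.67) in the stromal condition, above 87.9% of genes, and 1.10 (0.13 to 2.23) in the astromal condition, above 91.7%. By its highest peaks alone the astromal value was 0.66 (−0.37 to 1.83), which holds 0, and the stromal value 1.18 (0.35 to 2.05). SMAD4 stood at −0.52 (−1.35 to 0.29) in the stromal condition, below the median gene by less than counting error. RB1 stood at 0.96 (−0.25 to 2.25) by its named peak and at −0.36 (−1.34 to 0.59) with the upstream H3K9ac peak included. In the astromal condition RB1 by position stood at −0.43 (−1.70 to 0.98).

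**Figure D3:**
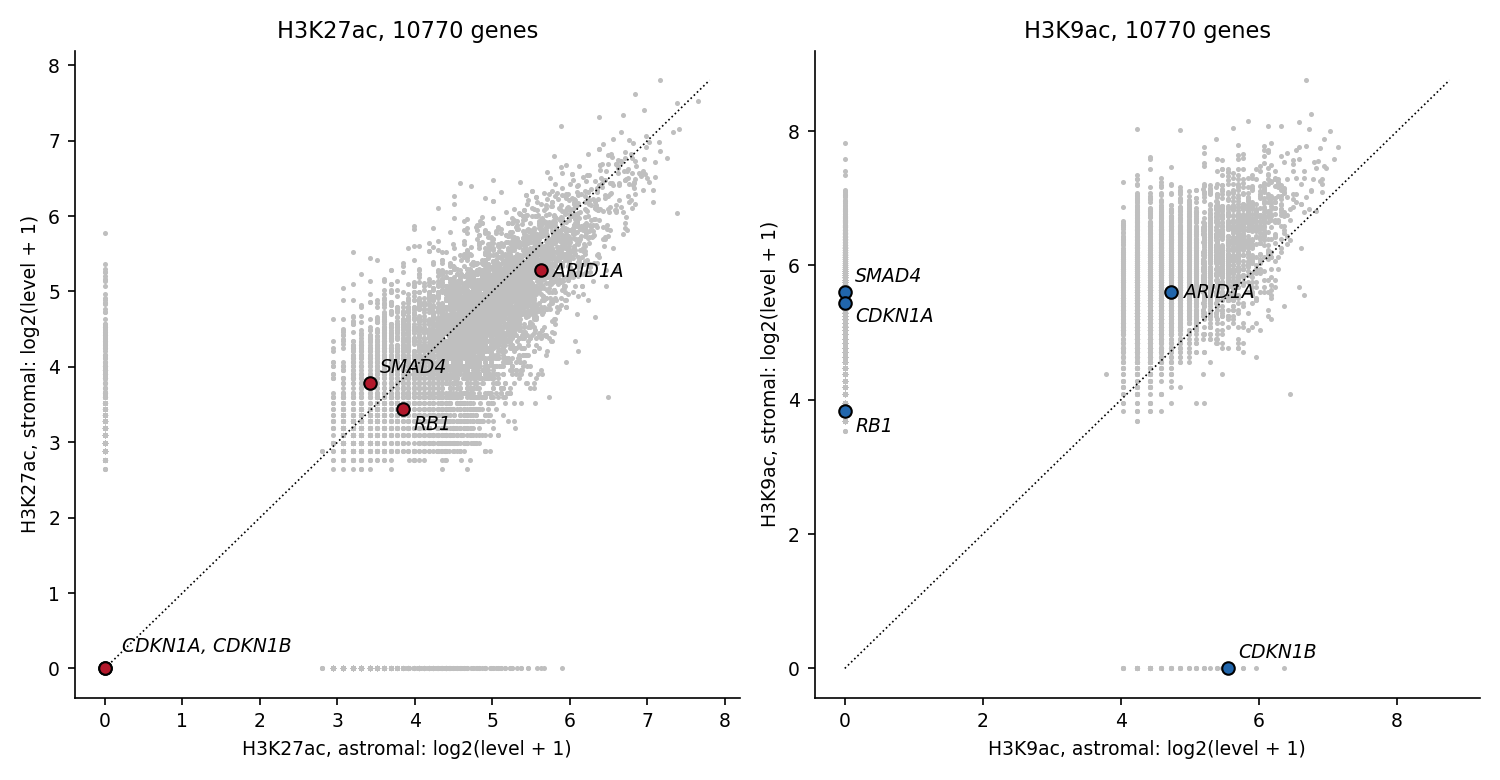
Stromal against astromal level on a log2(level + 1) scale for 10770 genes (grey) and the 5 genes with peaks (coloured), H3K27ac left and H3K9ac right; genes without a peak in a list lie at 0 and the dotted line marks equal levels. SMAD4, CDKN1A and RB1 lie on the stromal H3K9ac axis, CDKN1B on the astromal one, and ARID1A among genes of both lists.

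CDKN2A, which is often lost in pancreatic cancer, lay in a long stretch with no peak of either mark in either condition. The last peak before it ended at chromosome 9 position 19409236 and the first after it began at 26892078 (hg19), which leaves 7.48 Mb without a peak in the 4 lists together. In the pooled lists this was the second longest of the gaps on chromosome 9 and number 10 of 30392 in the genome. The median gap of the pooled lists on chromosome 9 was 1.27 kb, shorter than in any single list. The single lists gave 7.48 Mb for stromal H3K9ac, 7.66 Mb for astromal H3K9ac and 7.51 Mb for each H3K27ac list. These gaps were number 12, 22, 16 and 16 in the genome for stromal and astromal H3K9ac, then stromal and astromal H3K27ac. The median gaps on chromosome 9 were 17.3, 102, 26.9 and 30.1 kb in the same order. Astromal H3K9ac had only 230 peaks on the chromosome, so its gap says least. Peaks stood on both sides, with H3K9ac of 14.5 (11 tags) at the ceramidase gene ACER2 on the left in the stromal list. On the right CAAP1, a regulator of apoptosis, had 39.6 (30 tags) in the stromal and 15.3 (6 tags) in the astromal list.

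Between ACER2 and CAAP1 the RefSeq order has 29 protein-coding genes with no H3K9ac peak. They include 16 type I interferon genes, which are mostly silent in cells that face no infection. They also include CDKN2B, a second inhibitor of CDK4 and CDK6, MTAP of methionine salvage, the transcription elongation gene MLLT3, FOCAD, HACD4 and KLHL9. MIA PaCa-2 is widely described as having lost CDKN2A on both chromosomes. Lost DNA, few mapped tags and unacetylated chromatin cannot be told apart from these lists, and the 4 inputs were not analysed here.

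**Figure D4:**
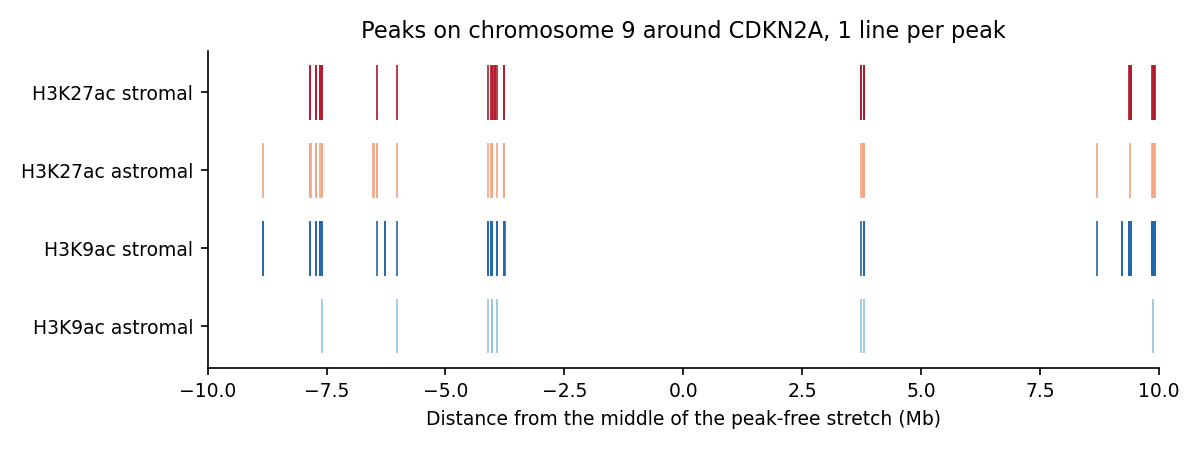
Each line is 1 peak on chromosome 9 by its distance in Mb from the middle of the peak-free stretch that holds CDKN2A; rows from top to bottom are stromal and astromal H3K27ac, then stromal and astromal H3K9ac. All 4 rows are empty across the central 7.48 Mb and have peaks on both sides.

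The wider pathways were described with lists of genes around the 6 members. Of the other CDK inhibitors, 3 of 5 had H3K9ac peaks, with CDKN2C in both lists and CDKN1C (66.0) and CDKN3 (22.5) in the stromal list only. CDKN2B and CDKN2D had none. CDKN2C, the INK4 inhibitor p18, was called higher in H3K9ac under stromal culture, at 171.7 (130 tags) against 20.4 (8 tags) astromal. Its centred log2 ratio was 2.07 (1.05 to 3.32). It had 5 stromal peaks and 1 astromal peak, and by the highest peak alone the ratio was 0.18 (−0.99 to 1.53) and no call. Its H3K27ac was 69.9 stromal and 50.5 astromal and was not called. CDKN3 was the 1 gene of the list with H3K27ac in 1 condition, at 13.38 stromal.

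Of 12 RB family and E2F genes 10 had H3K9ac, 5 of them in both conditions and 5 in the stromal list only, near the 51.2% of all genes. None was called in either mark. The stromal-only genes with the highest levels were E2F6 (58.1), TFDP2, a dimer partner of the E2Fs (37.0), E2F1 (29.1) and E2F2 (23.8). E2F4 (10.4) and TFDP2 (9.66) had H3K27ac in the astromal list only, as 7.43% of all genes did. Of 12 cyclin, CDK and p27 turnover genes 10 had H3K9ac, 4 of them under both conditions and 6 in the stromal list only. None was called. Over all genes 51.2% were stromal only. CCND1, the cyclin that activates CDK4 and CDK6, had 67.3, the S-phase cyclin gene CCNA2 42.3, SKP2, whose protein marks p27 for destruction, 22.5, and CCNE2 and CDK2 18.5 each. H3K27ac was present at 5 of the 10, in both lists, where 65.8% of all genes had it in both.

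Of 15 SMAD and receptor genes 13 had H3K9ac, 7 of them under both conditions and 6 in the stromal list only. This was 46.2%, against 51.2% of all genes. Of the 7 genes 1 was called higher and 1 lower in H3K9ac, where 5.85% and 3.61% of all genes in both lists were. Of 6 with H3K27ac in both lists 1 was called lower, where 6.21% of all were. SMAD4's receptor-activated partner SMAD2 was called in both marks, in opposite directions. Its H3K9ac was 92.5 (70 tags) stromal and 22.9 (9 tags) astromal, a centred log2 ratio of 1.01 (0.01 to 2.20), just past the limit. Its H3K27ac was 11.1 (19 tags) stromal and 28.2 (38 tags) astromal, a ratio of −1.19 (−2.06 to −0.36). By the highest peaks the values were 0.01 and −0.50, with no call in either mark. The activin receptor gene ACVR1B was called lower in H3K9ac, at 15.9 stromal and 22.9 astromal (−1.53, −2.90 to −0.11), on 12 and 9 tags. By the highest peak it was at −1.21 and not called. As ACVR1B had 1 peak in each H3K9ac list, only the subtracted median differed, 0.68 by highest peaks against 1.00. ACVR1B had H3K27ac in the stromal list only, at 5.82. The inhibitory SMAD7 (70.1) and SMAD6 (55.5), SMAD3 (63.4) and ACVR2A (43.6) led the stromal-only H3K9ac genes, while SKIL, a SMAD corepressor, had astromal-only H3K27ac of 8.18.

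ARID1A's partners in SWI/SNF had H3K9ac in both lists at 14 of 19 genes with a peak, among 21, and H3K27ac in both lists at 17 of the 19. Over all genes the shares were 48.1% and 65.8%. The ATPase gene SMARCA4 was called higher in H3K9ac at 1.05 (0.10 to 2.17), with 105.7 stromal and 25.5 astromal. For H3K27ac the other ATPase gene SMARCA2 was called higher at 1.70 (27.93 stromal, 9.66 astromal), the core subunit SMARCC2 at 1.12 (24.39 and 12.6) and DPF2 at 1.06 (26.1 and 14.1). SMARCD3 was called lower at −1.19 (6.98 and 17.8) and BCL7A at −1.19 (5.82 and 14.87, interval −2.44 to −0.02). SMARCD2 (108.3), ARID2 (54.1), BRD7 (38.4) and PBRM1 (27.7) led the stromal-only H3K9ac genes, and PHF10 (8.92) had astromal-only H3K27ac. The H3K27ac calls went in both directions, with 3 of 17 genes in both lists higher and 2 lower, where 5.5% and 6.21% of all such genes were. By the highest peaks SMARCD3 alone was called, at −1.16 (−2.29 to −0.10), while SMARCA4 stood at 0.41, SMARCA2 at 0.14, SMARCC2 at 0.40, DPF2 at 0.24 and BCL7A at −0.30. The SWI/SNF genes called higher each had more stromal than astromal peaks.

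Of 13 other tumour suppressors of the pancreas 9 had H3K9ac, 5 of them under both conditions and 4 in the stromal list only. None was called. The stromal-only share was 44.4%, against 51.2% of all genes. The stromal-only genes included the DNA repair genes BRCA2 (55.5) and PALB2 (29.1) and the stress kinase gene MAP2K4 (11.9). NF1, a negative regulator of RAS, had astromal-only H3K27ac of 8.18. No gene of these 6 pathway lists had H3K9ac in the astromal list only, which 0.706% of all genes had.

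**Figure D5:**
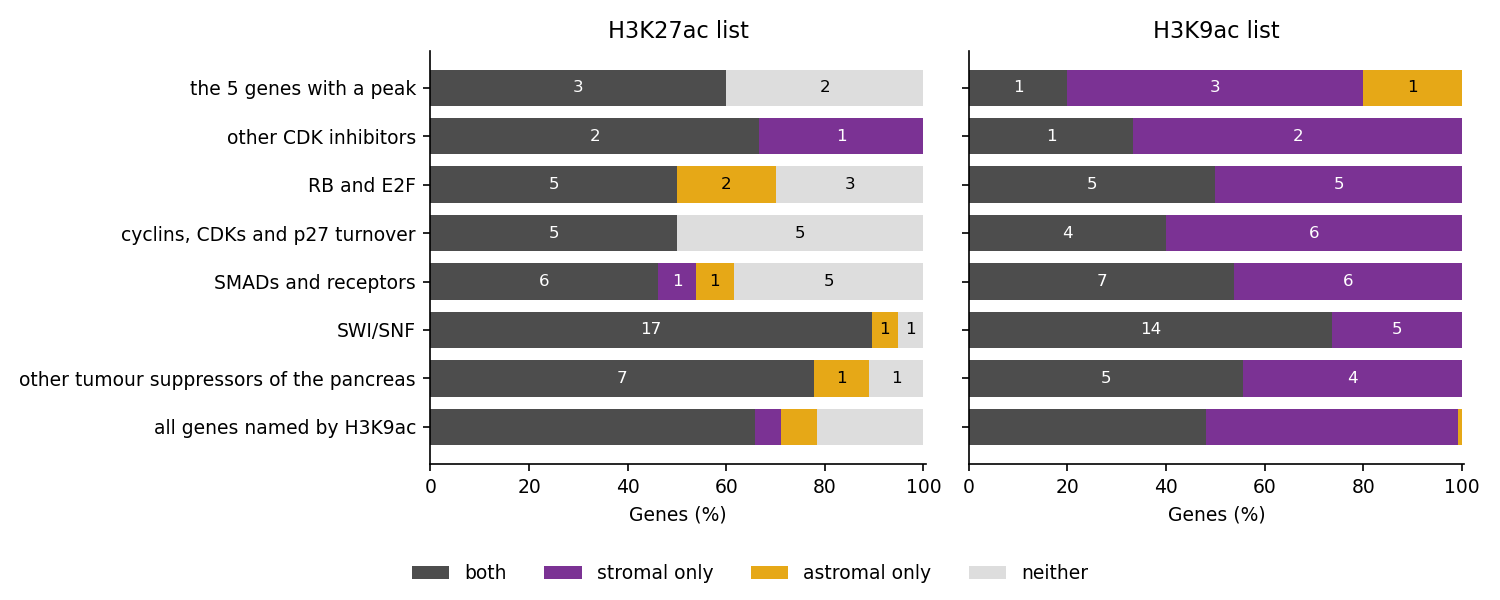
Share of genes (%) found in both lists, in the stromal or astromal list only, or in neither, for H3K27ac left and H3K9ac right, among the genes of each pathway list that an H3K9ac peak names; counts are printed in the bars and the bottom bar is all 10770 genes. Stromal-only H3K9ac makes up between 26.3% (SWI/SNF) and 66.7% (other CDK inhibitors) of the lists and 51.2% of all genes, and CDKN1B makes the only astromal-only H3K9ac segment of the gene lists.

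The genes nearest to each member over the 4 libraries, by Euclidean distance of log2(level + 1), are given as a description. SMAD4 was nearest to GADD45GIP1 (distance 0.072) and MED6 (0.073), which had stromal H3K9ac of 48.9 and 46.2 and H3K27ac in both conditions. RB1 was nearest to MED14OS (0.114) and NLRP12 (0.151). CDKN1A tied at distance 0 with 15 genes, among them CCNA2 and DAAM1, since each held the same number of stromal H3K9ac tags and nothing else. CDKN1B had no close neighbour, with HIST1H3D at 0.354 and SPRY2 at 0.57, which had astromal H3K9ac of 35.7 and 30.6 and no other peak. ARID1A was nearest to C12orf4 (0.167) and LAMTOR1 (0.173), both with all 4 values above 0.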

How the data were processed

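H3K9ac and H3K27ac ChIP-seq of MIA PaCa-2 spheroids was used as 4 peak lists, 1 library each. Reads were processed with CASAVA 1.8.2, Bowtie and HOMER on hg19, per the submitters' processing notes. H3K27ac peaks were called per library against input, with at least 4-fold over input and over the surrounding 10 kb, per the file headers. The row numbers of both H3K27ac lists equal the totals in those headers. For H3K9ac the calling thresholds were not found in the sources used here.

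The authors' deposited signal, tags in a peak normalised to 10000000 tags of the library, served as level. Raw counts stood beside it in the deposited astromal H3K27ac list. In the H3K9ac lists the deposited signal was taken to be on the same scale. All values lay within 0.1 tag of whole multiples of 1 step, which gave tags and estimated depths. Deposited fold over input and over the local region and the authors' findPeaks score describe H3K27ac peaks only.

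Levels were summed per gene and compared as log2 ratios with exact Clopper-Pearson intervals at 95%, covering counting error only. No p-value was computed, since each group had 1 library and no replicate check exists. Start sites were rebuilt in hg19 from the annotated distances. Promoters were matched by symbol in the RefSeq table. It held 4 of the 5 genes with peaks at their usual start, and the RB1 entry was not used here. The call rule was tested on simulated tags with large planted changes and counting error only. That test could not address variation between libraries or in the number of peaks. The members and gene lists were chosen with earlier results of these data known. Named were all members. From the pathway lists, genes called or found in the astromal list only in either mark, and in each list the 4 highest stromal-only H3K9ac genes, were named. CDKN3, CCNE2 with CDK2 (tied), and H3K27ac values of named genes were added after their values were seen. For each member the 2 nearest genes were named. The values of 1 gene of these lists are not reported here. Alternatives were other windows, the highest peak, no centring, stricter peaks and a 1.5-fold limit. Python 3.11.15, pandas 2.3.3 and scipy 1.17.1 were used.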

Additional observations from a re-analysis of the deposited data

How the results depend on the processing

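The places of the members depended on how peaks were tied to genes. With H3K9ac peaks within 1 kb of a start only, 0 members instead of 1 were in both lists, because ARID1A has none there. With H3K27ac at least 8-fold over input, SMAD4 made 1 member found in the stromal list only, where there was 0. Taking H3K27ac only near H3K9ac of the same condition left 1 member in both lists (ARID1A) and put 2 in the stromal list only (SMAD4 and RB1), by construction, since their astromal H3K9ac is missing. With peaks taken within 5 kb of a start whatever gene they name, an alternative chosen after the data were seen, 2 members had H3K9ac in both lists (RB1 and ARID1A). Of 53 alternative values 48 stayed within 1.5 times the count or gap, or within the counting interval of the ratio. Counts of calls and of shared peaks had to stay equal. The ratio intervals were wide, and some values could not move. For example, the weakest stromal H3K27ac peak had 9 tags, so the 9-tag limit removed nothing there. Among the 48, H3K27ac within 1 kb still lost a member, with 2 in both lists (SMAD4 and ARID1A) in place of 3. CDKN1B stayed the astromal-only H3K9ac gene in the 3 alternatives that retook H3K9ac peaks (within 1 kb of a start, at least 9 tags, and within 5 kb of a start by any name). The 1 kb and 9-tag alternatives only remove peaks, so they could not have given CDKN1B a stromal one. Its astromal peak (434 bp from the start, 18 tags) passes both. Only the 5 kb alternative could have added a stromal peak, and it did not. Of the members with peaks in both lists of a mark, none was called with the highest peak, without centring or with a 1.5-fold limit. The findPeaks score could not be used for H3K9ac, whose lists have none. No paired analysis was possible because each group had 1 library. Depth limits the astromal H3K9ac list most, and its absent peaks are no measured absence. Absent H3K27ac peaks, which had to pass the 4-fold limits, are no measured absence either.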

Other observations

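The 4 stromal-only H3K9ac genes of highest level in the pathway lists (SMARCD2, SMAD7, CCND1 and CDKN1C) differed in H3K27ac. SMARCD2 had 53.5 stromal and 41.6 astromal, CDKN1C 30.34 stromal and 24.5 astromal, and CCND1 11.6 stromal and 8.18 astromal. SMAD7 had no H3K27ac peak in either list. CDK6, a kinase held back by the INK4 inhibitors, had H3K27ac of 12.2 stromal and 26.0 astromal, a centred log2 ratio of −0.92 (−1.78 to −0.10) that left out 0 but missed the 2-fold limit. These genes were picked after their values were seen.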
